A study of Mus musculus with 6 samples.

Results

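The genes described here are 7 imprinted or imprint-linked genes of the mouse counterpart of the Prader-Willi region, namely Ndn, Magel2, Mkrn3, Snrpn, Snurf, Peg12 and Ube3a, chosen by name from the 49568 gene names with a deposited expression value. Imprinted genes are transcribed mainly from the copy inherited from 1 parent. In this region Snrpn, Snurf, Ndn, Magel2, Mkrn3 and Peg12 are expressed from the paternal copy, and Ube3a is expressed from the maternal copy in mature neurons. Loss of paternal expression of the human region causes Prader-Willi syndrome, in which breathing is often disturbed, and mice without Ndn can have impaired breathing after birth. Loss of maternal UBE3A causes Angelman syndrome.

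The samples came from the preBötzinger complex (preBötC), the brainstem site where the rhythm of inspiration arises, of mice at postnatal day 2. All mice were Dbx1CreERT2; Rosa26tdTomato offspring of both sexes, in which a tamoxifen-dependent Cre recombinase driven by the Dbx1 gene switched on the red fluorescent protein tdTomato in cells descended from Dbx1-expressing progenitors. Each sample pooled 15 neurons drawn into a micropipette from 1 mouse, and each of the 6 samples came from another mouse. The 3 Dbx1 samples held tdTomato-positive neurons, and the 3 non-Dbx1 samples held neuronal somata of the same kind of slice without tdTomato, a group defined only by lack of the reporter. The question asked of the 7 genes was whether their expression differed between the groups.

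Reads assigned to genes ranged from 6464675 to 9432958 per sample. Expression is given as RPKM, reads scaled to exon length and to all reads on genes. It sums both parental copies and does not tell them apart. The 8 neuronal markers summed to 1628 to 2351 RPKM in Dbx1 samples and 1481 to 2125 in non-Dbx1 samples. The 4 haemoglobin genes summed to 89.6 to 505 RPKM in Dbx1 samples and 732 to 13946 in non-Dbx1 samples, and the 7 oligodendrocyte lineage markers reached 388 in non-Dbx1 replicate 1. The 4 catecholaminergic and 3 endothelial markers reached 502 and 65.4 RPKM in non-Dbx1 replicate 2, and the 4 cholinergic markers reached 62.3 in non-Dbx1 replicate 3 against 1.34 to 20.4 elsewhere, whereas the 6 microglial markers stayed between 0.202 and 2.97 in all samples, with Itgam and Tmem119 at 0. The 4 Y-linked genes Ddx3y, Eif2s3y, Uty and Kdm5d summed to 23.1 and 23.0 RPKM in Dbx1 replicates 2 and 3 and to at most 0.0172 elsewhere, while Xist was above 0 only in the other 4 samples. The part of blood, glial, vascular and other neuronal RNA and of sex in the values below was not tested.

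On mouse chromosome 7 (GRCm38, positions from GENCODE vM21), the 7 genes spread over 3236 kb from chr7:59228750-62464510. Ube3a (ENSMUSG00000025326, chr7:59228750-59311536, plus strand) encodes an E3 ubiquitin ligase. Snrpn (ENSMUSG00000102252, chr7:59982495-60140219, minus strand), which encodes the spliceosome protein SmN, and Snurf (ENSMUSG00000102627, chr7:59995449-60005049, minus strand), a short open reading frame upstream of SmN on the same messenger RNA, have 12 and 3 merged exons. Ndn (ENSMUSG00000033585, chr7:62346569-62350262, plus strand) and Magel2 (ENSMUSG00000056972, chr7:62377010-62381640, plus strand) are neighbouring members of the MAGE family of ubiquitin ligase regulators, each with 1 exon. Mkrn3 (ENSMUSG00000070527, chr7:62417593-62420139, minus strand), a makorin with zinc fingers and a RING domain, and Peg12 (ENSMUSG00000070526, chr7:62461871-62464510, minus strand), a relative of the FRAT regulators of Wnt signalling, also have 1 exon each.

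The coding sequence of Snurf is shown because it decides how Snurf could be measured. It runs over its 3 exons on the minus strand, with the start and stop codons in capitals (GENCODE vM21):
Snurf: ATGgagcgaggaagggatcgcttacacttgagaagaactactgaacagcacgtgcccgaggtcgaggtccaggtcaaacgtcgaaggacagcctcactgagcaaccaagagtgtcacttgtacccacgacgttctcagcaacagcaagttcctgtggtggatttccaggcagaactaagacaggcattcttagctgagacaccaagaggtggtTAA
The whole run of 216 bases lies in 1 annotated transcript of Snrpn and 1 of Gm38393 as well, and all 216 exon bases of Snurf are exon bases of Snrpn and of Gm38393. Snurf was listed at 0 RPKM in all 6 samples. The annotation leaves Snurf no exon base of its own, and the counting assigned reads to gene names, so no level or detection limit for Snurf can be given. Of the Snrpn exon bases, 34.1% are also exon bases of another gene. Reads on shared bases may have been left out of the counts, which would make the RPKM of Snrpn too low. Gm38393, which the annotation begins 0.015 kb upstream of Snurf, measured 1.73, 7.27 and 6.39 RPKM in the Dbx1 group against 2.16, 3.44 and 3.14 in the non-Dbx1 group.

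The highest members, Ndn and Snrpn, have an 8-base run in common in front of RefSeq start sites (GRCm38.p6). The run CGCATGCG, which reads the same on both strands and is part of the longer palindrome bound by the transcription factor NRF1, lay within 250 bases before the Ndn start and before 3 of the 4 Snrpn starts. It was picked after the sequences had been read. The surrounding 30 bases are shown 5′ to 3′ on each gene's strand, with the run in capitals:
Ndn, chr7:62348243-62348272, plus strand: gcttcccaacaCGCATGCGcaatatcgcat
Snrpn, chr7:60048031-60048060, minus strand: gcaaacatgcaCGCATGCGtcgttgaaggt
Snrpn, chr7:60140285-60140314, minus strand: gcaaacatccaCGCATGCGtgatgggaggg
Snrpn, chr7:60450222-60450251, minus strand: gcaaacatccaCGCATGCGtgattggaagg
The run began 23 bases before the Ndn start and 63 to 78 bases before the Snrpn starts. It was present in 1.55% of 32851 RefSeq promoter windows of this length. The windows of Magel2, Mkrn3, Peg12, Snurf and Ube3a did not hold it. The Snrpn window without the run is the same window as that of Snurf. The Snrpn runs have nearly the same bases around them, so they cannot be taken as independent occurrences. In GENCODE vM21 the Ndn exon begins upstream of the RefSeq start, so its window lies inside that exon.

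Ndn was among the most abundant messenger RNAs of both groups. Its RPKM was 420, 346 and 323 in the Dbx1 group against 346, 572 and 384 in the non-Dbx1 group, from 8267 to 18081 reads. Non-Dbx1 replicate 2 was highest and Dbx1 replicate 3 lowest, and the groups overlapped. The mean over all samples ranked 52 among all gene names. Mean RPKM was 363 ± 50.8 in Dbx1 and 434 ± 121 in non-Dbx1 neurons (SD, n = 3), with an L2FC of -0.23 ± 0.27 (SE, limma, FDR = 0.96). It ran from -0.37 to -0.01 with 1 sample left out. L2FC is the Dbx1 mean minus the non-Dbx1 mean of log2(RPKM + 1), tested over the 17614 genes that had reads in 3 or more samples, and FDR is the Benjamini-Hochberg value.

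Snrpn was expressed at a like level. It measured 345, 355 and 238 RPKM in the Dbx1 group against 272, 318 and 392 in the non-Dbx1 group, from 4855 to 10859 reads. Dbx1 replicate 3 was lowest and non-Dbx1 replicate 3 highest, and the groups overlapped widely. The means were 313 ± 65.0 and 327 ± 60.8 RPKM (SD, n = 3), and the L2FC was -0.07 ± 0.27 (SE, limma, FDR = 0.987). Leaving out Dbx1 replicate 3 or non-Dbx1 replicate 3 turned its sign, to 0.11 or 0.07. Ndn and Snrpn together made up 91.6% to 97.9% of the summed RPKM of the 5 measured paternally expressed genes, and that sum ranged from 612 to 937 RPKM.

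**Figure D1:**
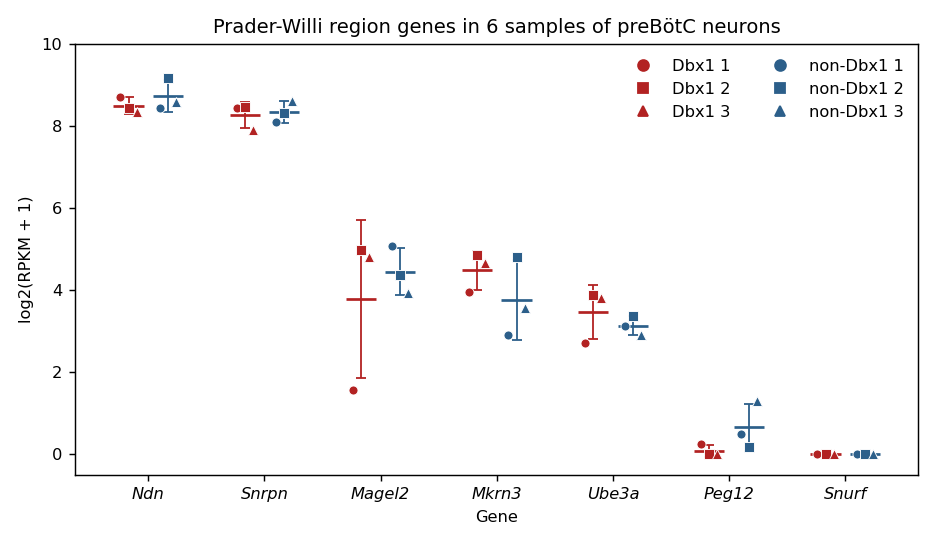
Expression of the 7 genes (x axis) as log2(RPKM + 1) (y axis), with 1 symbol per sample, red for Dbx1 and blue for non-Dbx1, and the mean ± SD of each group of 3. Ndn and Snrpn lie above 7 in every sample, Magel2 falls to a single low value in Dbx1 replicate 1, and Snurf is at 0 throughout.

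Magel2 had the widest spread of the members within the Dbx1 group, with an SD of 1.93 on the log2(RPKM + 1) scale, whereas within the non-Dbx1 group Mkrn3 had the widest, 0.97 against 0.58 for Magel2. It measured 1.96, 30.7 and 27.1 RPKM in the Dbx1 group against 32.6, 19.6 and 14.2 in the non-Dbx1 group, from 72, 1070 and 874 reads and 976, 778 and 619 reads. Dbx1 replicate 1 lay 7.25-fold under the next lowest sample, and the other Dbx1 samples lay within the range of the non-Dbx1 samples. Among 4425 genes with a mean of at least 10 RPKM, 101 (2.28%) had a lowest sample at least as far below the others, and in 20 of these it was also Dbx1 replicate 1. The range of Magel2 over the 6 samples was 3.51 on the log2(RPKM + 1) scale, and 4.29% of 3029 genes with a mean within 2-fold of its own had a wider one. Group means were 19.9 ± 15.7 RPKM in Dbx1 and 22.1 ± 9.47 in non-Dbx1 neurons (SD, n = 3), and the L2FC was -0.67 ± 0.84 (SE, limma, FDR = 0.96). Without Dbx1 replicate 1 it reversed to 0.45 (limma, FDR = 0.935). Neuronal markers summed to 2351 RPKM in Dbx1 replicate 1, the highest of all samples, of which Tubb3 gave 1232. Tubb3 and Snap25, the latter at 301 RPKM, were highest there, and Syn1, Stmn2 and Eno2 second highest. Map2 lay between, at 8.23 RPKM. The markers Rbfox3 and Nefl were second lowest there, at 11.5 and 140.6 RPKM. Ndn, from the adjacent gene, was second highest there. Why Magel2 was low in this sample was not tested.

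Mkrn3 was detected in every sample, from 107 to 591 reads. Its RPKM was 14.5, 28.1 and 24.2 in the Dbx1 group against 6.50, 27.1 and 10.8 in the non-Dbx1 group. The 2 lowest values were non-Dbx1 samples, but non-Dbx1 replicate 2 reached the level of the highest Dbx1 samples. The means were 22.3 ± 6.99 and 14.8 ± 10.9 RPKM (SD, n = 3), and the L2FC was 0.73 ± 0.50 (SE, limma, FDR = 0.936). It was 1.26 without non-Dbx1 replicate 2 and 0.30 without non-Dbx1 replicate 1, each over 1.5 times from the value with all samples.

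Peg12 was at the edge of detection. It had 4, 0 and 0 reads in the Dbx1 group against 7, 3 and 36 in the non-Dbx1 group, or 0.191, 0 and 0 RPKM against 0.410, 0.133 and 1.45. Where no read was found, up to 0.151 RPKM (Dbx1 replicate 2) and 0.163 RPKM (Dbx1 replicate 3) remained possible, taken as 3 reads and for counting error only. Most reads came from non-Dbx1 replicate 3, the sample with the highest cholinergic markers, and the groups overlapped between Dbx1 replicate 1 and non-Dbx1 replicate 2. The means were 0.0635 ± 0.110 and 0.663 ± 0.692 RPKM (SD, n = 3), and the L2FC was -0.57 ± 0.31 (SE, limma, FDR = 0.924), or -0.25 without non-Dbx1 replicate 3. At these low levels the size of the difference depended on the scale, with -1.99 for a pseudocount of 0.1 and -3.38 for the log2 ratio of the group means.

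Ube3a, the maternally expressed member, measured 5.53, 13.7 and 13.04 RPKM in the Dbx1 group against 7.74, 9.29 and 6.56 in the non-Dbx1 group, from 1367 to 3213 reads. Dbx1 replicates 2 and 3 were above every non-Dbx1 sample and Dbx1 replicate 1 below every one. The means were 10.8 ± 4.55 and 7.86 ± 1.37 RPKM (SD, n = 3), and the L2FC was 0.33 ± 0.42 (SE, limma, FDR = 0.96). It was 0.71 without Dbx1 replicate 1 and 0.12 without Dbx1 replicate 2. Counting did not use strand. Of the annotated exon bases of Ube3a, 27.3% are also exon bases of the opposite-strand genes Snhg14, 9330162G02Rik and Gm44560. Reads there cannot be assigned to 1 gene. The counting may have left them out, as Snurf, with shared exon bases only, was listed at 0 RPKM. The RPKM of Ube3a would then be too low. Reads of opposite-strand transcripts on its other exon bases would be counted as Ube3a and make its RPKM too high. Neither was tested.

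None of the 6 tested members passed an FDR of 0.1 in limma, beside 0.00568% of all genes tested, which was 1 gene. At the same threshold the paper's DESeq2 test of counts called several genes, such as Gata2 and Hif1a, that did not pass here. The limma test on RPKM may therefore miss differences. At an unadjusted p under 0.05 there was also no member, against 5.2% of all genes, and limma voom on recovered reads called 0 of all genes. Groups did not overlap for 0 members and for 10.6% of all genes. The L2FC was above 0 for Mkrn3 and Ube3a and below 0 for Ndn, Snrpn, Magel2 and Peg12, with a median of -0.15 against 0.01 over all genes. Exact two-sided permutation tests of 3 samples against 3, which cannot go below p = 0.10, gave p from 0.20 for Peg12 to 0.80 for Magel2. The SE of 0.27 to 0.84 leaves differences of that size undetectable with these samples, and larger ones can be missed as well. In the same fit Gabra5, a neighbour of the members, had an L2FC of 1.20 ± 0.24 and did not pass (SE, limma, FDR = 0.697).

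**Figure D2:**
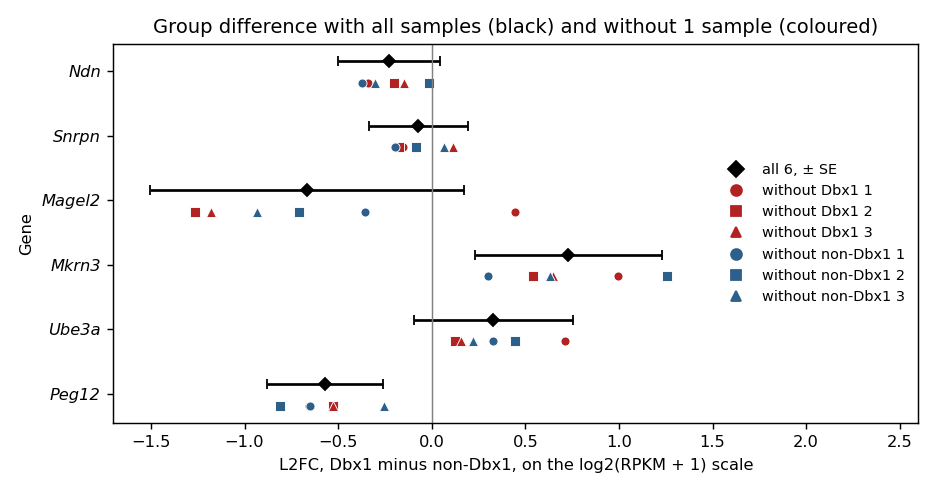
L2FC of the 6 members with reads (y axis) between Dbx1 and non-Dbx1 neurons on the log2(RPKM + 1) scale (x axis, positive where Dbx1 was higher). Black diamonds with bars give the value from all samples ± SE, and coloured symbols the value with 1 sample left out, which crosses 0 for Magel2 without Dbx1 replicate 1 and for Snrpn without replicate 3 of either group.

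Within samples the members fell into an order of mean RPKM from Ndn through Snrpn, Magel2, Mkrn3 and Ube3a to Peg12. Differences between neighbours in this order were tested with exact sign changes over the 6 samples, adjusted over the 5 pairs. Snrpn was above Magel2 in 6 of 6 samples, by 4.19 ± 1.46 on the log2(RPKM + 1) scale (SD, n = 6, exact p = 0.03125, adjusted p = 0.0781). Ube3a was above Peg12 in 6 of 6 samples, by 2.93 ± 0.866 (SD, n = 6, exact p = 0.03125, adjusted p = 0.0781), and 0.03125 is the smallest p that 6 samples allow. Mkrn3 was above Ube3a in 5 of 6 samples, by 0.82 ± 0.59 (SD, n = 6, exact p = 0.0625, adjusted p = 0.104), a mean difference larger than its SD that did not pass an adjusted p of 0.1. Ndn was above Snrpn in 4 of 6 samples, by 0.31 ± 0.33 (SD, n = 6, exact p = 0.125, adjusted p = 0.156), and Magel2 was above Mkrn3 in 4 of 6, with a mean difference of -0.01 ± 1.47 (SD, n = 6, exact p = 1), so the neighbours in these pairs did not differ beyond their spread.

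The order of the top pair rested on the exon length used. The length behind the deposited RPKM was 2935 bases for Snrpn and 31089 for Ube3a, whereas the merged exons of GENCODE vM21 have 2159 and 20626 bases, and the lengths of Ndn, Magel2, Mkrn3 and Peg12 were the same in both. With the GENCODE lengths, Snrpn had a mean of 435 RPKM against 399 for Ndn and was above it in 5 of 6 samples (exact p = 0.281, adjusted p = 0.352). Ube3a then had a mean of 14.04 RPKM and remained under Mkrn3 in 5 of 6 samples. Shared exon bases, 34.1% for Snrpn and 27.3% for Ube3a, may add length without reads. Ndn and Mkrn3 have none, and the order was not corrected for this. The Ndn length counts bases upstream of its RefSeq start, and a shorter length was not tried. The ratio of Ndn to Snrpn ranged from 0.977 to 1.80 between samples with the deposited values. The ratio of Ndn to Magel2 was 215 in Dbx1 replicate 1 and ranged from 10.6 to 29.1 in the other samples.

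A relation between the neighbours Ndn and Magel2 across samples did not pass the test. Pearson's r of log2(RPKM + 1) was -0.32 (exact permutation p = 0.479, adjusted p = 0.78) and Spearman's rho was -0.66 (exact permutation p = 0.175, adjusted p = 0.583) over 6 samples. Without Dbx1 replicate 1 and non-Dbx1 replicate 2, the samples farthest from the median of Ndn, r was -0.78. Of the 10 pairs among the 5 members with reads in all samples, 0 passed an adjusted p of 0.1, the lowest being 0.597 for the Pearson and 0.583 for the Spearman test. Magel2 and Ube3a had the highest r, 0.73 (exact permutation p = 0.0597, adjusted p = 0.597), which fell to 0.09 without Dbx1 replicate 1 and non-Dbx1 replicate 3, so it rested on those samples. Mkrn3 and Ube3a had an r of 0.67 (exact permutation p = 0.153, adjusted p = 0.764).

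The genes most like Ndn over the 6 samples, among 8026 others with at least 1 RPKM in every sample, were Uck2, a uridine-cytidine kinase (r = 0.995), Gm5576 (r = 0.98) and Gm8163 (r = 0.98). Those most like Magel2 were Clcn2, a chloride channel (r = 0.99), Lrrc45 (r = 0.99) and Negr1, a neuronal adhesion molecule (r = 0.98). Each of these was lowest in Dbx1 replicate 1 for Magel2, with 1.002, 2.57 and 7.45 RPKM there. With 6 samples and so many genes such values are a description only. By the same measure Snhg14 ranked 132 for Magel2, with an r of 0.87.

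Snhg14, the long non-coding host RNA that runs downstream of Snurf across the snoRNA clusters and into Ube3a on the opposite strand, measured 3.32, 9.96 and 9.99 RPKM in the Dbx1 group against 6.54, 5.84 and 6.26 in the non-Dbx1 group, from 739 to 2099 reads. Dbx1 replicate 1 was lowest, as for Ube3a and Magel2, and the other Dbx1 samples were highest. Its L2FC was 0.16 ± 0.48 (SE, limma, FDR = 0.984). The ratio of Snhg14 to Ube3a ranged from 0.601 to 0.954 between samples. As counting did not use strand, either gene may hold reads of the other strand. Snhg14 shares 1803 exon bases with Ube3a on the opposite strand, which is 8.74% of the Ube3a exons.

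Between the first and last base of the members, 265 annotated gene names were in the files, 57 had reads and 23 had reads in all samples. Of the 18 that were not members and had reads in all samples, 7 were lowest in Dbx1 replicate 1, against 15.9% of 11897 genes with reads in all samples. These 7 were Snhg14, Gm38393, Gm44559, Gm44830, Gm44831, A230103L15Rik and the snoRNA Gm26365, of which all but Gm38393 begin downstream of the Snurf start. Gm44831, A230103L15Rik and Gm26365 begin within the annotated span of Snhg14, and Gm44559 and Gm44830 within that of Ube3a. Their reads may come from the same transcripts, which was not tested, so the 7 cannot be counted as independent genes. This count leaves out A330076H08Rik, which begins between Snrpn and Ndn and had reads in every sample but Dbx1 replicate 1. It also leaves out Gm38451 and Gm9801, which had reads in every sample but non-Dbx1 replicate 3. Of 210 snoRNA genes in the region, 19 had reads and 1, Gm26365, had them in all samples. Of 20 microRNA genes, 5 had reads. Reads of such short genes may come from host transcripts, which was not tested. No step for short RNAs was described for these libraries, so genes without reads cannot be taken as silent.

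**Figure D3:**
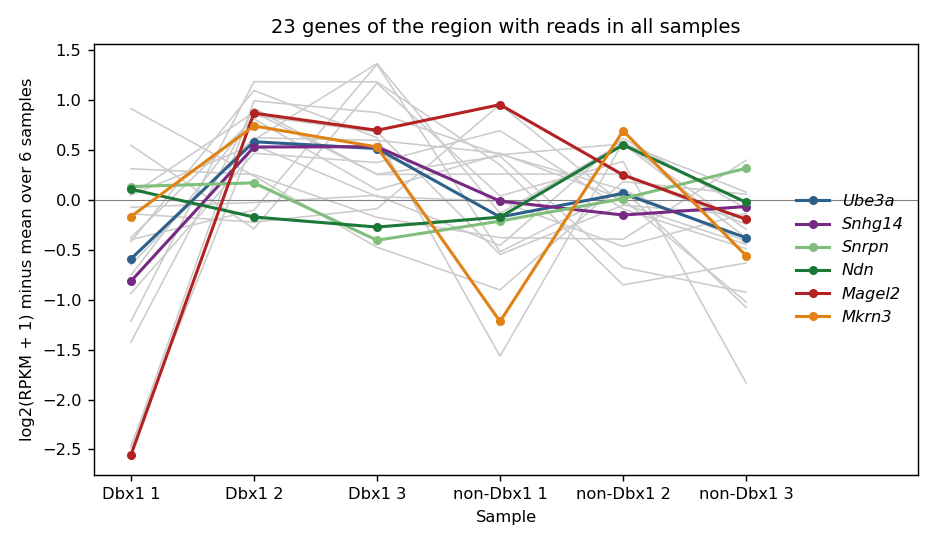
Each of 23 genes of the region with reads in all samples, as log2(RPKM + 1) minus its own mean over the 6 samples (y axis), by sample (x axis), with 5 members and Snhg14 in colour and the other genes in grey. Magel2 drops furthest in Dbx1 replicate 1, where Ube3a and Snhg14 are also lowest and Ndn and Snrpn lie slightly above their means. Among the grey genes, Gm44559 (2.24 RPKM there) and Gm44830 (2.58 RPKM there) drop nearly as far.

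Other non-coding RNAs of the region were lower than Ndn and Snrpn. B230209E15Rik, a long intergenic RNA between Snrpn and Ndn, measured 13.6, 13.01 and 9.41 RPKM in the Dbx1 group against 8.04, 7.95 and 14.5 in the non-Dbx1 group (L2FC 0.26 ± 0.36, SE, limma, FDR = 0.962). A330076H08Rik was at 0 in Dbx1 replicate 1 and between 1.12 and 10.4 RPKM elsewhere, and A230056P14Rik ranged from 0.113 to 5.45. Snord64 and Snord107 were listed at 0 in all samples, which does not show that they were silent. Of the 7 genes of this list in the files, 4 had reads and were tested, 0 passed an FDR of 0.1 or an unadjusted p under 0.05 in limma, and the median L2FC was 0.21 against 0.01 over all genes.

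**Figure D4:**
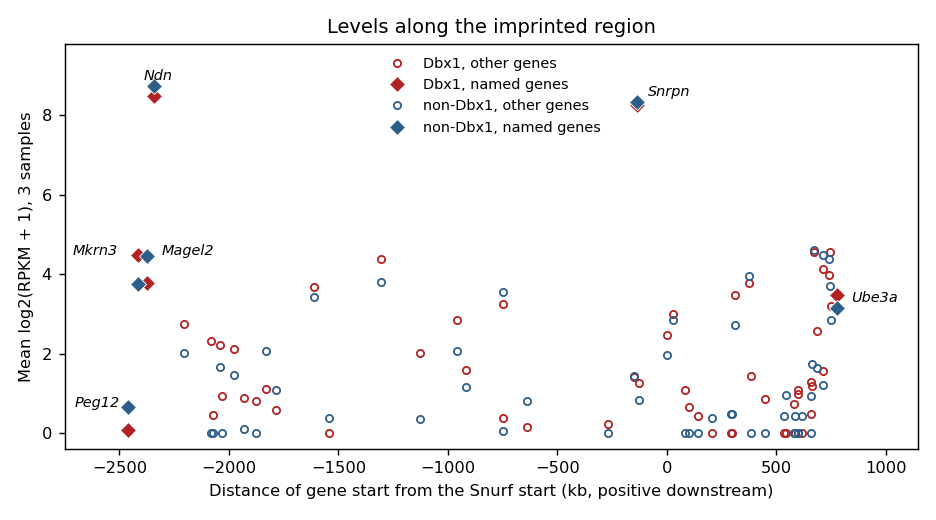
Mean log2(RPKM + 1) over the 3 samples of each group (y axis) against the distance of each gene's start from the Snurf start in kb (x axis, positive in the direction of Snurf transcription), for the 57 genes of the region with reads. Ndn and Snrpn stand above 8 in both groups, and all other genes lie below 5.

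Around the imprinted domain, the 19 non-imprinted or partly imprinted neighbours were all tested and 0 passed an FDR of 0.1 in limma, with 1, Gabra5, at an unadjusted p under 0.05. Their median L2FC was -0.01 against 0.01 over all genes, with 9 above and 10 below 0. Groups did not overlap for 4 of the 19, all with Dbx1 higher, against 5.35% of all genes in that direction. Among them were Gabra5, a subunit of GABA-A receptors, Nipa2, a magnesium transporter, and Tubgcp5, of the gamma-tubulin complex. Gabra5 measured 64.0, 67.2 and 50.3 RPKM in the Dbx1 group against 21.7, 25.7 and 29.9 in the non-Dbx1 group. Its L2FC, the most positive of the list, was 1.20 ± 0.24 (SE, limma, FDR = 0.697). Gabrg3, in the same receptor gene cluster, had the most negative, -0.80 ± 0.56 (SE, limma, FDR = 0.939). Apba2 ranged from 9.35 to 24.4 RPKM and Nipa1 from 5.64 to 16.6.

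Ndn and Magel2 belong to the MAGE family, of which other members were strongly expressed. Of 11 other MAGE genes in the files, 8 had reads and 6 were tested, and 0 passed an FDR of 0.1 in limma, with 1, Mageh1, at an unadjusted p under 0.05 (median L2FC -0.12 against 0.01 over all genes). The highest were Maged1, at 96.8 to 226 RPKM, Maged2, at 82.3 to 151, and Magee1, at 86.6 to 140, each below Ndn and above Magel2 in every sample. Mageh1 had 37.0, 45.0 and 31.1 RPKM in the Dbx1 group against 65.1, 80.0 and 71.9 in the non-Dbx1 group. Its groups did not overlap, as for 5.24% of all genes with Dbx1 lower, and its L2FC was -0.93 ± 0.23 (SE, limma, FDR = 0.724). Maged2 had the most positive L2FC of the family, 0.42 ± 0.23 (SE, limma, FDR = 0.924).

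Proteins known to work with the members were detected at moderate levels. Magel2 binds the ubiquitin ligase Trim27 and directs it, with the retromer and the WASH complex, to endosomal protein recycling. All 11 genes of that list had reads in every sample, and 0 passed an FDR of 0.1 or an unadjusted p under 0.05 in limma (median L2FC 0.25). The retromer subunits Vps29, Vps35 and Vps26b were highest, at 19.2 to 29.7, 15.3 to 39.2 and 10.98 to 26.0 RPKM. L2FC in this list ran from -0.43 ± 0.46 for E430025E21Rik, a WASH subunit now named Washc5, to 0.46 ± 0.50 for Ccdc53, now Washc3. Of 7 necdin partners, E2f4, a cell cycle transcription factor, and Pias1, a SUMO ligase, had the highest levels with Ngfr, the p75 neurotrophin receptor, and 0 passed an FDR of 0.1 in limma, with 1 at an unadjusted p under 0.05 (median L2FC 0.18). E2f4 measured 12.2 ± 2.22 RPKM in Dbx1 and 6.91 ± 0.708 in non-Dbx1 neurons, and Pias1 5.17 ± 1.20 and 9.07 ± 1.62 (SD, n = 3). Their L2FC were 0.73 ± 0.33 and -0.71 ± 0.39 (SE, limma, FDR = 0.912 and 0.924). The groups did not overlap for either gene, as for 10.6% of all genes in either direction. Ngfr had the most positive L2FC of these, 1.50 ± 0.83 (SE, limma, FDR = 0.924), with 21.8 RPKM in Dbx1 replicate 2 and at most 3.10 in the other samples.

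SmN, the product of Snrpn, takes the place of SmB in the spliceosome core. The gene of SmB, Snrpb, measured 31.5 ± 12.1 RPKM in Dbx1 and 42.2 ± 6.06 in non-Dbx1 neurons (SD, n = 3), below Snrpn in every sample, and had the most negative L2FC of the 7 core genes, -0.46 ± 0.30. Snrpg had the most positive, 0.39 ± 0.54. Snrpd1, at 62.6 to 83.5 RPKM, was the highest of the list and Snrpd3 ranged from 29.7 to 47.4. None of the 7 passed an FDR of 0.1 or an unadjusted p under 0.05 in limma (median L2FC 0.08). Of 10 partners and substrates of UBE3A, 0 passed an FDR of 0.1 or an unadjusted p under 0.05 in limma (median L2FC -0.06). Psmd4, a proteasome ubiquitin receptor, was highest at 28.6 to 46.0 RPKM, followed by Ube2d1 at 9.83 to 28.7 and Mapk6 at 8.47 to 16.5. Arc, a synaptic protein, had the most positive L2FC, 0.11 ± 0.83, and Arhgef15 the most negative, -0.39 ± 0.60.

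The makorin paralogue Mkrn1 measured 36.3 ± 9.28 RPKM in Dbx1 and 39.996 ± 3.11 in non-Dbx1 neurons (SD, n = 3), above Mkrn3 in every sample. Mkrn2 measured 5.60 ± 1.41 and 7.27 ± 0.334. Their L2FC were -0.16 ± 0.25 and -0.35 ± 0.39 (SE, limma, FDR = 0.967 and 0.959). Frat1 and Frat2, the relatives of Peg12, had reads in all samples, at 0.440 to 4.07 and 0.644 to 10.5 RPKM, with L2FC of 0.06 ± 0.67 and 0.92 ± 0.66 (SE, limma, FDR = 0.995 and 0.94). The median L2FC of these 2-gene lists was -0.25 for the makorins and 0.49 for Frat1 and Frat2.

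Imprinted genes elsewhere in the genome gave a frame for the members. Of 44 such genes, 43 had reads, 41 were tested and 0 passed an FDR of 0.1 in limma, with 0 at an unadjusted p under 0.05 and a median L2FC of 0.13. Groups did not overlap for 2 of the 41, Impact and Ppp1r9a, both with Dbx1 higher, against 10.6% of all genes in either direction and 5.35% with Dbx1 higher. Only 1 of the 44, Nap1l5, a nucleosome assembly gene, had a mean RPKM above Ndn or Snrpn, and 10 had one above Magel2. Nap1l5 measured 772, 818 and 689 RPKM in the Dbx1 group against 423, 529 and 743 in the non-Dbx1 group (L2FC 0.46 ± 0.29, SE, limma, FDR = 0.936).

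Among the 22 paternally expressed genes of this list, Nnat, which encodes neuronatin, ranged from 100.2 to 190.1 RPKM, Impact from 52.3 to 93.9, Peg3, a zinc finger gene, from 44.6 to 59.3, and Inpp5f from 35.6 to 51.2. The most positive L2FC was that of Kcnq1ot1, 0.63 ± 0.70, and the most negative that of Dlk1, -1.75 ± 0.88 (SE, limma, FDR = 0.912), which reached 15.5 RPKM in non-Dbx1 replicate 2 alone. The median over the list was 0.05. Of the 22 genes listed as maternally expressed, 19 were tested, with a median of 0.20. The parental labels of these lists are general and need not hold in these neurons. Meg3, a long non-coding RNA, was highest, at 110, 352 and 457 RPKM in the Dbx1 group against 393, 189 and 148 in the non-Dbx1 group, and was lowest in Dbx1 replicate 1 as Snhg14 was. Asb4 followed at 12.3 to 60.1 RPKM, then H13 at 12.98 to 20.5, Trappc9 at 8.05 to 29.0 and Osbpl5 at 3.92 to 17.8. Ppp1r9a had the most positive L2FC, 0.99 ± 0.54, and Grb10 the most negative, -0.69 ± 0.46. Over the 36 other imprinted genes with reads in all samples, 6 (16.7%) were lowest in Dbx1 replicate 1 and 14 (38.9%) in non-Dbx1 replicate 3, against 15.9% and 15.0% of all genes with reads in all samples. Of the 18 other genes of the Prader-Willi region, 5 were lowest in non-Dbx1 replicate 3.

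**Figure D5:**
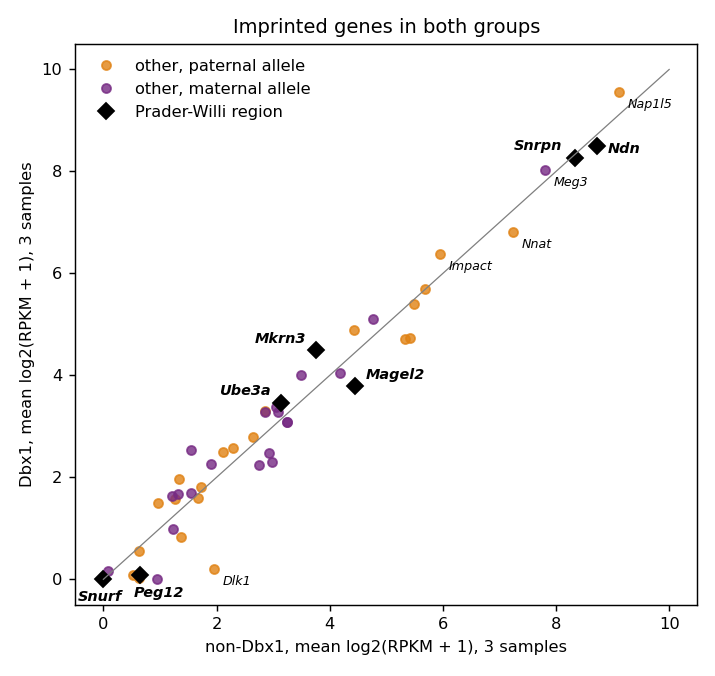
Mean log2(RPKM + 1) of 3 samples in Dbx1 (y axis) against non-Dbx1 neurons (x axis), with the line of equal values. Black diamonds are the 7 Prader-Willi region genes. The 44 other imprinted genes are orange where listed as paternally expressed and purple where listed as maternally expressed. Ndn and Snrpn lie near the line between Meg3 and Nap1l5.

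The members were also set beside the transmitter genes of these neurons. Slc17a6, a vesicular glutamate transporter, measured 47.2, 128 and 54.9 RPKM in the Dbx1 group against 31.9, 35.1 and 13.6 in the non-Dbx1 group. Slc17a6 groups did not overlap, as for 5.35% of all genes with Dbx1 higher. Slc17a6 had the most positive L2FC of the 5 transmitter genes, 1.44 ± 0.47 (SE, limma, FDR = 0.87). Slc32a1, the vesicular transporter of GABA and glycine, had the most negative, -0.65 ± 0.41. Gad2, an enzyme of GABA synthesis, ranged from 23.3 to 60.0 RPKM and Slc6a5, the neuronal glycine transporter, from 13.1 to 64.2. None passed an FDR of 0.1 in limma, 1, Slc17a6, had an unadjusted p under 0.05, and the list had a median L2FC of -0.46. Ndn was above each of these genes in every sample.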

How the data were processed

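RNA was sequenced from 3 Dbx1 and 3 non-Dbx1 samples of 15 neurons, each from 1 mouse. The authors amplified complementary DNA with SMART-Seq v4, made Nextera libraries, aligned single-end reads to mm10 with Tophat2, counted them on gene names with HTSeq without strand and deposited RPKM per gene, computed with Ensembl exon lengths and without scaling between samples. The annotation release is not given in the sources used here. The authors tested counts with DESeq2. As the deposited values are RPKM, limma on the log scale was the main test here, and recovered reads were tested only in the voom alternative.

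Reads per gene and per sample were recovered from the steps between RPKM values, as the smallest whole numbers (tolerance 0.01 reads) matching the deposited values, so true numbers may be multiples of them. They give the depth, 6464675 to 9432958 reads on genes. Intervals and limits of 3 reads cover counting error only. Positions and lengths came from GENCODE vM21, which held 95.3% of the names, and promoters from RefSeq GRCm38.p6.

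log2(RPKM + 1) of the 17614 genes above 0 in at least 3 samples was tested with limma 3.58.1 (lmFit, eBayes with trend) in R 4.3.3, two-sided, with Benjamini-Hochberg adjustment and a threshold of 0.1, after the test had been tested on simulated data. Single tests were exact permutation tests in Python 3.11.15 with scipy 1.17.1. All 7 members are reported, the non-coding genes of the region with reads, and from each other gene list the tested genes with the most positive and most negative L2FC, any with FDR under 0.1 and the 3 (5 for other imprinted genes) with the highest mean RPKM, and the 3 genes most like Ndn and Magel2. Some genes were chosen after their values were seen. These were named for groups that do not overlap, for a low value in 1 sample or as Snurf's exon partners. The members and lists were chosen with earlier results of these data known. Some genes that this rule or a count would name are not reported here. Symbols missing from the files were matched through RefSeq synonyms.

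Alternatives were a pseudocount of 0.1, keeping genes above 0 in any sample, keeping genes at 1 RPKM or more in 3 samples, scaling by median-of-ratios size factors or by quantiles, limma with no trend, a replicate block, each sample left out, voom on recovered reads (at least 10 in at least 3 samples), the log2 ratio of group means, each group alone and GENCODE exon lengths. The lengths and the relation without 2 samples were added after seeing the data.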

Additional observations from a re-analysis of the deposited data

How the results depend on the processing

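No member passed an FDR of 0.1 in any of the 14 alternative limma fits that held it (Peg12 did not pass the filters of the fits at 1 RPKM and with voom, so it was in 12), the lowest member FDR being 0.784 and the lowest unadjusted p 0.0189, for Mkrn3 without non-Dbx1 replicate 2. Of 88 member values under alternatives, 85 kept their sign. The 3 that turned were Magel2 without Dbx1 replicate 1 (0.45) and Snrpn without Dbx1 replicate 3 (0.11) or without non-Dbx1 replicate 3 (0.07). Over all genes, 1 gene passed as reported, and 0 passed with a pseudocount of 0.1, with genes above 0 in at least 1 sample and with voom on recovered reads, 3 passed with limma without trend, and 0 to 1 with 1 sample left out, the causes of which were not tested. With the replicate block 0 genes and 0 members passed. Same-numbered samples came from different mice, and their deviations from the group means had correlations of -0.11, 0.02 and -0.05. Whether same-numbered samples shared any handling is not given in the sources used here and was not tested. With 1 sample left out, L2FC ran from -1.27 to 0.45 for Magel2 and from -0.20 to 0.11 for Snrpn. The number of neighbouring pairs with 1 sign in all samples was 2 under every alternative tried, GENCODE lengths included. The r of Ndn and Magel2 ranged from -0.91 to -0.24 with 1 sample left out, and the lowest, without non-Dbx1 replicate 2, had an exact permutation p of 0.0417 over 5 samples. Depth limits Peg12 alone among the members with reads, since the others had at least 72 reads in every sample, and 3 samples a group limit all.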
